A study of Mus musculus with 18 samples.

Results

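The expression of 6 long noncoding RNAs (lncRNAs), Malat1, Neat1, Miat, Snhg11, Sox2ot and Rmst, was followed in the retina of male mice across genotype and antioxidant treatment. They were taken by gene symbol from the 35006 gene names counted in each library, and all 6 were among the 16183 genes with enough counts to be tested. WT mice were C57BL/6J animals, and Akita mice (C57BL/6-Ins2Akita/J) were heterozygous for a spontaneous mutation of an insulin gene, Ins2, that makes them diabetic early in life. NACET, the ethyl ester of the antioxidant N-acetyl-L-cysteine, was dissolved in the drinking water (0.33 mg/mL), which corresponds to 50 mg/kg body weight daily, between week 4 and week 24 of age, and the remaining mice had plain water. There were 3 WT, 6 WT + NACET, 4 Akita and 5 Akita + NACET libraries of poly(A) RNA from whole retinas harvested at 24 weeks. The deposited values were read counts per gene, which are given here as CPM (counts per 1e6 of the library total after TMM scaling, which adjusts each total for differences in RNA composition).

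Most of these RNAs act in the nucleus and code for no protein. Malat1 is an abundant RNA of nuclear speckles, where splicing factors are stored, and Neat1 is the scaffold of the neighbouring paraspeckles. Miat, also called Gomafu, is a nuclear RNA of neurons that was described in the retina and binds splicing factors. Snhg11 is a host transcript of small nucleolar RNAs (snoRNAs) that is prominent in neurons, Sox2ot spans the gene of the stem cell and glial factor SOX2, and Rmst is a neural RNA known to act with SOX2.

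Gene counts ranged from 11590384 to 18073791 per library. Besides reads in exons, each library held reads that aligned to a single place but to no annotated exon, which can come from introns, unannotated transcripts or DNA, and the counts do not separate these sources. As mean ± SD, this share of the uniquely aligned reads was 16.3% ± 1.24 in the 3 WT, 12.7% ± 2.74 in the 6 WT + NACET, 11.5% ± 1.83 in the 4 Akita and 16.4% ± 2.11 in the 5 Akita + NACET libraries. Akita and Akita + NACET did not overlap (two-sided exact permutation p = 0.00794, the smallest that 4 and 5 libraries allow, adjusted p = 0.0476 over 6 pairs). Leaving out any 1 library of these 2 groups lost this call. Akita and WT did not overlap either, with the smallest p that 3 and 4 libraries allow (exact p = 0.0286, adjusted p = 0.0714). Summed over 10 crystallin and other lens genes, WT + NACET replicate 5 held 25833 CPM and Akita replicate 2 held 3040 CPM, against a median of 13.4 CPM in WT. Akita + NACET replicates 3 and 5 held 1342 and 371 CPM, and every other library at most 69.6 CPM. The labels number the replicates but name no animals, so the p-values measure the spread between these libraries. In bulk tissue, fewer cells of a type and less RNA per cell cannot be told apart. The Akita mutation is described as one that makes the insulin protein fold incorrectly, which counts per gene do not show, and Ins2 is a gene of pancreatic beta cells. The Ins2 level in retina therefore could not check the genotype.

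Sequences of 3 of these RNAs are shown because they carry the features by which these transcripts are known. Mature Malat1 and the long isoform of Neat1 end without a poly(A) tail, in an A-rich tract that pairs with upstream U-rich stretches as a triple helix, and how selection for poly(A) RNA captured them was not tested. The letters are the transcribed strand as DNA, 5′ to 3′, from the mouse genome build NCBIM37 (mm9), with the downstream U-rich stretch and the A-rich tract in capitals.
Malat1, minus strand of chr19:5795972-5796084: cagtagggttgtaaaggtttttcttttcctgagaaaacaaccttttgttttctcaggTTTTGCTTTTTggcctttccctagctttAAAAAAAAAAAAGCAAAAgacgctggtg
Neat1, minus strand of chr19:5824698-5824803: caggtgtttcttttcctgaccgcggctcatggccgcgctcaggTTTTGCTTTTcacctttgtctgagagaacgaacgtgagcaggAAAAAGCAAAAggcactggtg
TTTGCTTTT followed by AAAGCAAAA in the same exon block, on the transcribed strand, was found in Malat1, Neat1 and Snhg11, and in 3 of 3748 other noncoding genes (0.08%). For Snhg11 this is a match of letters only. Miat is known for copies of TACTAAC, which resembles the branch point consensus bound by splicing factor 1, and the stretch with the closest copies is shown with the copies in capitals.
Miat, minus strand of chr5:112645770-112645834: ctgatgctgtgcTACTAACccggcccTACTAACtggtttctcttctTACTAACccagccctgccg
Across its 8760 exon bases Miat held 6 matches to TACTAAC on the transcribed strand. Neat1 held 1, and the other members held 0 there, with 1 on the opposite strand of Rmst. Of the 3748 other noncoding genes, 142 (3.79%) held at least 1 match, none more than 4, and 50 (1.33%) reached Miat's density per exon base.

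The 6 genes lie on 5 chromosomes, and only Malat1 and Neat1 are neighbours. In the GENCODE vM1 annotation of mm9, Malat1 covers chr19:5795690-5802671 on the minus strand as 1 exon block, and Neat1 covers chr19:5824708-5845478 on the same strand, 22037 bases away. Miat (chr5:112642248-112657968, minus strand) has 7 exon blocks. Snhg11 (chr2:158201374-158211881, plus strand), annotated there as protein coding, has 8521 exon bases, and its exons contain 133 bases of a SNORA71 snoRNA. Sox2ot (chr3:34003360-34581541, plus strand) has 19 exon blocks, and Sox2 itself lies in an intron, sharing 0 exon bases. Rmst (chr10:91544491-91627923, minus strand) has 12 exon blocks and shares 1955 exon bases with Gm17341 on the opposite strand. Malat1 shares 425 exon bases with Gm20417, also opposite. Counting ignored strand, so reads in such shared bases cannot be told apart.

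Per length, Malat1 was by far the most abundant of the 6. Its level was 677 ± 52.7 RPKM, which is CPM divided by the kilobases of annotated exon, in WT (SD, n = 3), against 43.9 ± 11.1 RPKM for Snhg11. The other 4 were scarce in WT, at 1.17 ± 0.132 RPKM for Sox2ot, 0.888 ± 0.212 RPKM for Rmst, 0.803 ± 0.395 RPKM for Miat and 0.434 ± 0.108 RPKM for Neat1. Neighbours in this order of the scarce RNAs overlapped in range, whereas Malat1 and Snhg11 each stood apart from the next. For Neat1 the value depends on the isoform taken, since over the 3170 bases of the short isoform it was 2.84 ± 0.709 RPKM. The scarce RNAs rested on few reads, from 55 to 163 counts per library for Neat1, 20 to 170 for Miat, 72 to 305 for Sox2ot and 22 to 87 for Rmst, so their relative error is larger than that of Malat1 or Snhg11.

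**Figure D1:**
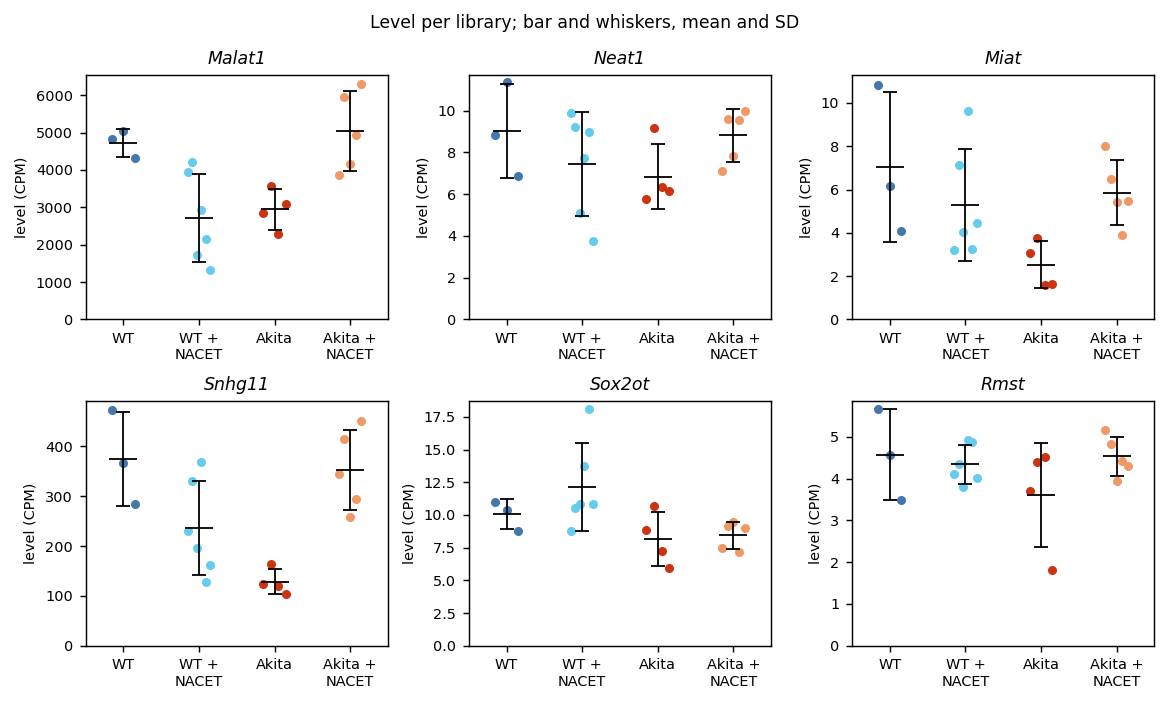
Level of each lncRNA in CPM (linear axes from 0) by group, with 1 point per library and the mean and SD as bar and whiskers. Snhg11 lay between 105 and 164 CPM in the 4 Akita libraries, below every WT (284 to 473 CPM) and every Akita + NACET library (258 to 452 CPM), and Malat1 spread most in WT + NACET, from 1328 to 4215 CPM.

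Malat1 had its lower means in Akita and in WT + NACET and its higher means in WT and in Akita + NACET, at 2948 ± 543, 2711 ± 1184, 4725 ± 368 and 5044 ± 1070 CPM (SD). Its level was 4823, 5034 and 4318 CPM in the WT libraries. It was 2855, 3584, 2273 and 3079 CPM in the Akita libraries, all below every WT library. In Akita + NACET it was 3876, 5949, 4156, 4933 and 6306 CPM, all above every Akita library. The WT + NACET libraries were the widest group, from 1328 through a median of 2530.4 to 4215 CPM, all below the lowest WT library. Despite these gaps, the log2 fold change of Malat1 did not pass the threshold in Akita vs WT (−0.68 ± 0.31 SE, adjusted p = 0.167), Akita + NACET vs Akita (0.77 ± 0.28, adjusted p = 0.0810) or WT + NACET vs WT (−0.80 ± 0.28, adjusted p = 0.140). With DESeq2 on the 2 groups alone, Malat1 passed in Akita vs WT (−0.66, adjusted p = 0.00180) and in Akita + NACET vs Akita (0.77, adjusted p = 0.000626). With DESeq2 on all groups, it passed in Akita + NACET vs Akita (0.77, adjusted p = 0.0493), as it did in edgeR without WT + NACET replicate 6 (adjusted p = 0.0422). Malat1 was higher in Akita + NACET than in WT + NACET, by 0.90 ± 0.25 (adjusted p = 0.0262), a call lost without Akita + NACET replicate 2 or 5 or WT + NACET replicate 3 or 5 (adjusted p = 0.0591, 0.0842, 0.0594 and 0.0557). The NACET effect differed between genotypes: in Akita minus WT it was 1.58 ± 0.40 (adjusted p = 0.0133), and it stayed past the threshold without any single library.

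Neat1 had differences of the same sign as those of Malat1 in 5 of 6 contrasts, at a smaller size, and none of them passed the threshold. It was 8.83, 11.4 and 6.86 CPM in WT and 5.75, 9.15, 6.34 and 6.13 CPM in Akita. It ranged from 3.75 through a median of 8.35 to 9.88 CPM in WT + NACET. In Akita + NACET it was 7.10, 9.61, 7.85, 9.57 and 9.99 CPM. All 4 groups overlapped. The log2 fold change was −0.39 ± 0.27 in Akita vs WT (adjusted p = 0.365), 0.36 ± 0.24 in Akita + NACET vs Akita (adjusted p = 0.321) and −0.27 ± 0.24 in WT + NACET vs WT (adjusted p = 0.561), and the interaction was 0.63 ± 0.34 (adjusted p = 0.187).

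Miat was lower in Akita than in WT. The WT libraries held 10.8, 6.16 and 4.09 CPM, and the Akita libraries 3.09, 3.76, 1.57 and 1.66 CPM, all below the lowest WT library. In Akita + NACET it was 7.99, 6.48, 5.42, 3.92 and 5.49 CPM, all above every Akita library, the lowest by a narrow margin. WT + NACET ranged from 3.19 through a median of 4.23 to 9.65 CPM and overlapped the other 3 groups. Miat fell by 1.46 ± 0.42 on the log2 scale in Akita vs WT (adjusted p = 0.0410). This call rested on single libraries: without WT replicate 1 the fold change was −1.0 (adjusted p = 0.231), and it was also lost without Akita replicate 1, 3 or 4, WT replicate 2 or Akita + NACET replicate 2 (adjusted p = 0.0558, 0.0822, 0.116, 0.0994 and 0.0522). In Akita + NACET vs Akita the value was 1.20 ± 0.38, just short of the threshold (adjusted p = 0.0510), and past it in DESeq2 on all groups (1.21, adjusted p = 0.0129) and in edgeR without Akita replicate 2, WT replicate 1 or 3 or WT + NACET replicate 1, 4 or 5 (adjusted p from 0.0346 to 0.0487). The NACET effect in Akita minus that in WT was 1.61 ± 0.52 (adjusted p = 0.0381), and 1.15 without WT replicate 1 (adjusted p = 0.154). The call was also lost without Akita replicate 3 or 4, Akita + NACET replicate 1, 2 or 5, WT replicate 2 or WT + NACET replicate 3, 5 or 6 (adjusted p from 0.0543 to 0.0739).

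Snhg11 had the largest interaction of the 6, and the largest difference between Akita and each of WT and Akita + NACET. It was 473, 366 and 284 CPM in the WT libraries, and 125, 164, 120 and 105 CPM in the Akita libraries. In Akita + NACET it was 345, 416, 258, 295 and 452 CPM. The Akita libraries thus lay below every library of WT and of Akita + NACET, and these last 2 groups overlapped. WT + NACET ranged from 128 through a median of 214 to 368 CPM, between Akita and WT and overlapping both. Snhg11 fell 2.92-fold in Akita vs WT (log2 fold change −1.55 ± 0.31, adjusted p = 0.0165) and rose 2.75-fold in Akita + NACET vs Akita (1.46 ± 0.28, adjusted p = 0.0190). These comparisons share the Akita libraries, so they are not independent of each other. The first call was lost without Akita replicate 4 (adjusted p = 0.0558) or WT replicate 1 or 2 (adjusted p = 0.108 and 0.0691), and the second without Akita replicate 4 (adjusted p = 0.0649) or Akita + NACET replicate 5 (adjusted p = 0.0539). In WT + NACET vs WT the value was −0.66 ± 0.28 (adjusted p = 0.211), and in Akita + NACET vs WT + NACET 0.58 ± 0.25 (adjusted p = 0.123, and 0.0460 without WT + NACET replicate 4). The NACET effect in Akita minus that in WT was 2.12 ± 0.40 (adjusted p = 0.00363), and without any single library it stayed past the threshold, at 1.92 to 2.31.

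Of Sox2ot and Rmst, the transcripts tied to SOX2, Sox2ot was called in 1 comparison and Rmst in none. Sox2ot was 10.99, 10.4 and 8.79 CPM in WT, 8.84, 10.7, 7.22 and 5.97 CPM in Akita and 7.51, 9.14, 9.44, 7.15 and 9.01 CPM in Akita + NACET. WT + NACET ranged from 8.78 through a median of 10.8 to 18.1 CPM, and the highest value came from replicate 5, the library with 25833 CPM of lens genes. Sox2ot was lower in Akita + NACET than in WT + NACET (log2 fold change −0.52 ± 0.17, adjusted p = 0.0484), and the groups overlapped. Without WT + NACET replicate 5 it was −0.37 (adjusted p = 0.129), and this call held only when Akita replicate 2 or 4, Akita + NACET replicate 3 or WT + NACET replicate 1 or 2 was the library left out, and was lost without any of the other 13. Rmst was 5.67, 4.56 and 3.49 CPM in WT and 3.72, 4.40, 4.52 and 1.82 CPM in Akita, the last from 22 counts in replicate 4. In Akita + NACET it was 5.17, 4.83, 3.96, 4.41 and 4.31 CPM, and in WT + NACET from 3.79 through 4.24 to 4.94 CPM. The groups overlapped, and the largest of the 5 pairwise differences of Rmst was −0.32 ± 0.23, in Akita vs WT (adjusted p = 0.393).

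Counted by comparison, 2 of the 6 were called in Akita vs WT (Miat and Snhg11, both lower), where 7.64% of all tested genes were called. In Akita + NACET vs Akita 1 was called (Snhg11, higher), against 9.65% of all genes. In WT + NACET vs WT edgeR called 0, against 1.48%, although 2 (Malat1 and Snhg11) had an unadjusted p under 0.05, and DESeq2 on all groups also called 0. Malat1 and Sox2ot were called in Akita + NACET vs WT + NACET, in opposite directions, against 13.3%. In Akita + NACET vs WT, 0 were called by either tool and 0 had an unadjusted p under 0.05, where edgeR called 0.00618% of all genes. The differences there ran from −0.26 ± 0.38 for Miat to 0.09 ± 0.30 for Malat1, so that even differences well above these SEs could have been missed. For the interaction 3 were called (Malat1, Miat and Snhg11), against 20.3%.

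Level and the share of reads outside exons were then set side by side, because WT and Akita + NACET had the higher means of the share, of Malat1 and of Snhg11. Over the 18 libraries the CPM of Malat1 rose with the share (Pearson's r = 0.924, Spearman's rho = 0.920, permutation p = 1e-05 for each, the smallest that 100000 permutations can give). Without the 2 libraries farthest from the median share, Akita + NACET replicate 5 and WT + NACET replicate 6, r was 0.883. After subtraction of the group means it was 0.893 (permutation p = 2e-05), and among the 6 WT + NACET libraries alone, whose shares ran from 9.55% to 16.5%, it was 0.980. Thus the relation of Malat1 to the share held within groups as well as between them.

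Snhg11 and Neat1 followed the share less closely. For Snhg11 r was 0.881 and rho 0.880 (permutation p = 1e-05 for each), 0.867 without the same 2 libraries and 0.763 within groups (permutation p = 0.000820). For Neat1 r was 0.745 (permutation p = 0.000530) and rho 0.748 (permutation p = 0.000610), 0.670 without the 2 libraries and 0.687 within groups (permutation p = 0.00655). For Miat r was 0.590 (permutation p = 0.00984) and rho 0.649 (permutation p = 0.00422), 0.688 without the 2 libraries, but the within-group value, 0.413, did not pass (permutation p = 0.124). Rmst (r = 0.429, permutation p = 0.0738; rho = 0.385, permutation p = 0.116) and Sox2ot (r = −0.104, permutation p = 0.689; rho = −0.028, permutation p = 0.914) showed no relation at p under 0.05. These are 6 relations on the same libraries, and their p-values are unadjusted.

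**Figure D2:**
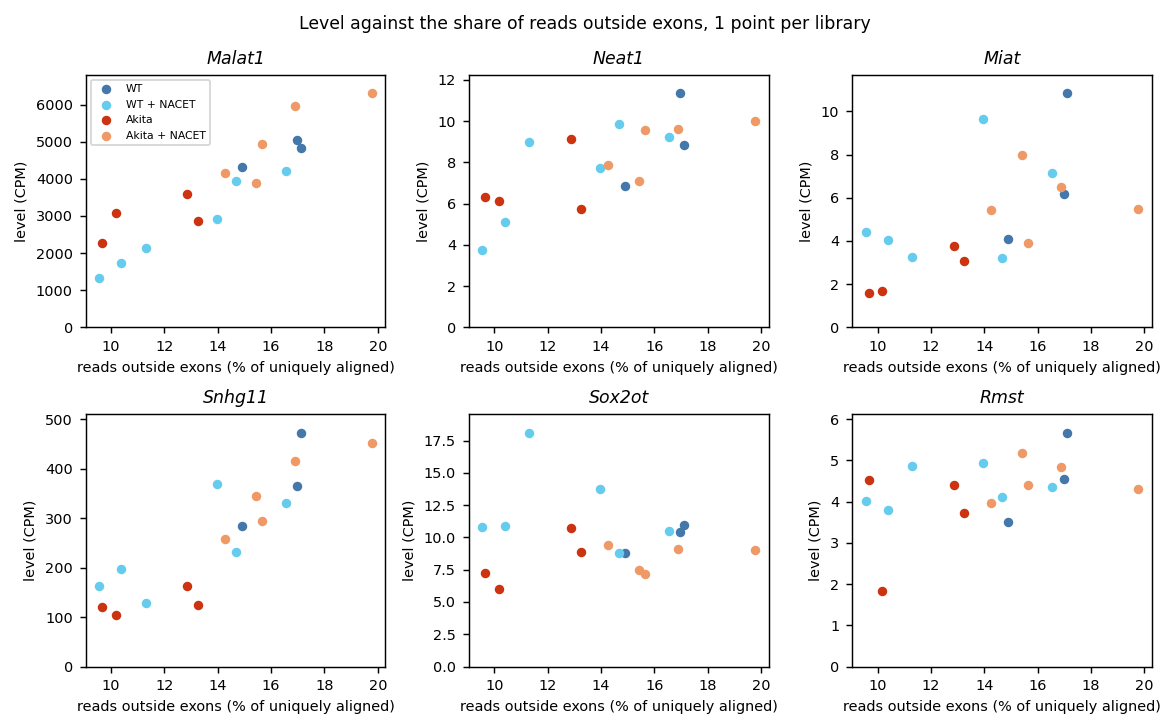
Level of each lncRNA in CPM against the share of uniquely aligned reads outside exons in percent, with 1 point per library coloured by group. Malat1 and Snhg11 rise along the share (r = 0.924 and 0.881), while Sox2ot does not (r = −0.104) and its highest point, 18.1 CPM, is a WT + NACET library with 25833 CPM of lens genes.

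To measure the same relation across all genes, the share was added to the edgeR model beside the group. The slope of Malat1 was 0.18 ± 0.025 log2 units per percentage point (SE, adjusted p = 0.000825 over all genes), that of Snhg11 0.15 ± 0.031 (adjusted p = 0.0112) and that of Neat1 0.12 ± 0.035 (adjusted p = 0.0402). The slopes of Miat (0.13 ± 0.060, adjusted p = 0.176), Rmst (adjusted p = 0.654) and Sox2ot (adjusted p = 0.879) did not pass. So 3 of the 6 had a slope that passed, against 8.53% of all tested genes, whose median slope was 0.000379. A steeper slope than that of Malat1 was found for 263 genes, so Malat1 was not alone in this.

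With the share in the model, 0 of the 6 were called in any comparison, but few genes were called at all. For the interaction this model called 17 of all 16183 genes, against 3289 with group alone. In WT + NACET vs WT it called 61 against 240, and in Akita + NACET vs WT + NACET 194 against 2148. The loss of calls was thus not particular to these lncRNAs. The interaction became 0.14 ± 0.29 for Malat1 (adjusted p = 0.909), 0.54 ± 0.68 for Miat (adjusted p = 0.852) and 0.83 ± 0.37 for Snhg11 (adjusted p = 0.547). Snhg11 kept its direction in Akita vs WT (−0.79 ± 0.25, adjusted p = 0.288) and in Akita + NACET vs Akita (0.68 ± 0.23, adjusted p = 0.628). Malat1 turned, to 0.19 ± 0.20 and −0.12 ± 0.18 in the same comparisons. Of all 16183 genes this model called 0 in Akita vs WT, where 2022 had an unadjusted p under 0.05, and 0 in Akita + NACET vs Akita, where 1281 did. Since the shares of Akita do not overlap those of WT or of Akita + NACET, group and share cannot be told apart in these comparisons.

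**Figure D3:**
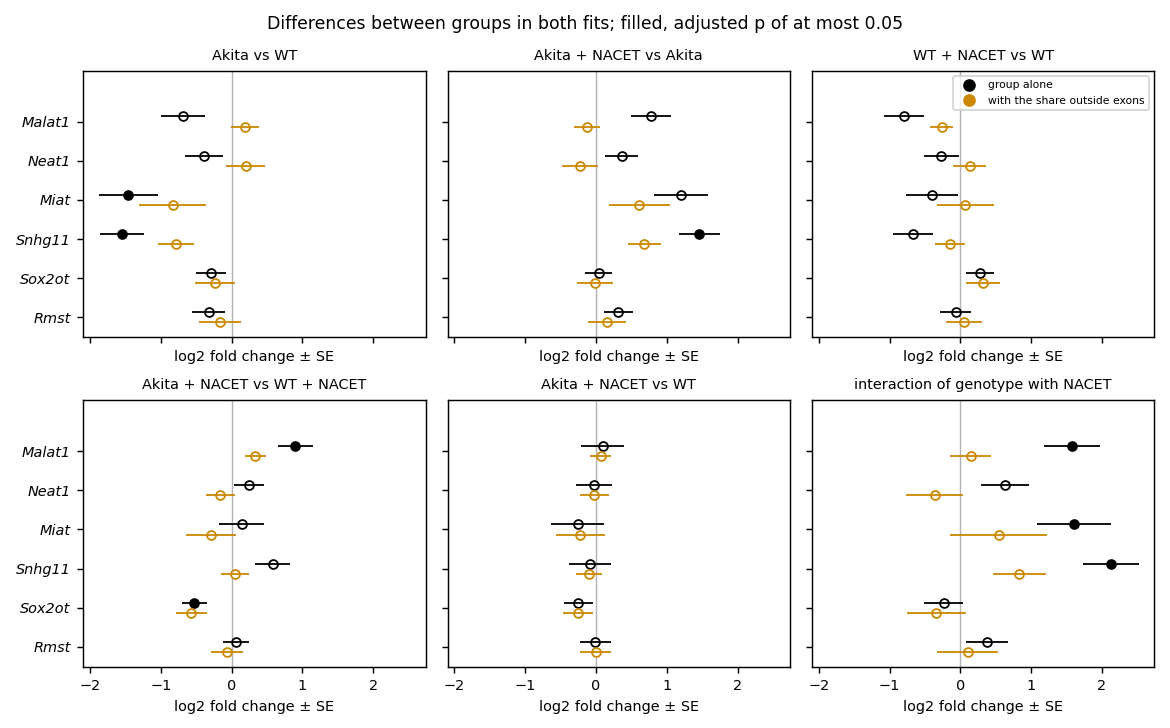
Log2 fold change with SE of each lncRNA in the 5 comparisons and the interaction, from the edgeR fit with group alone (black) and with that share as a further term (ochre). Filled points have an adjusted p of at most 0.05, and every filled point is from the fit with group alone, among them the interactions of Malat1 (1.58), Miat (1.61) and Snhg11 (2.12).

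Scaling by the reads outside exons in place of all gene counts was tried for the most abundant pair, a choice made after the data were seen. Per 1000 reads outside exons, Snhg11 had 0.891 ± 0.176 reads in Akita (SD, n = 4), against 1.96 ± 0.417 in WT (n = 3), 1.84 ± 0.260 in Akita + NACET (n = 5) and 1.54 ± 0.449 in WT + NACET (n = 6). On this scale Akita still lay below every WT library (exact permutation p = 0.0286, adjusted p = 0.0571 over 6 pairs, where 0.0286 is the lowest p that 3 and 4 libraries allow) and every Akita + NACET library (exact permutation p = 0.00794, adjusted p = 0.0476). Malat1 had 24.9 ± 1.17 reads in WT, 17.1 ± 3.97 in WT + NACET, 20.3 ± 2.44 in Akita and 26.4 ± 3.61 in Akita + NACET. Its WT libraries (23.9 to 26.2) lay above every Akita library (17.2 to 22.9) and every WT + NACET library (12.2 to 21.8), while Akita and Akita + NACET overlapped. None of the 6 pairs of Malat1 passed after adjustment, the lowest being Akita + NACET vs WT + NACET (exact permutation p = 0.0108, adjusted p = 0.0649).

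The proteins and transcripts among which these RNAs work were described from lists chosen with earlier results of these data known. Of 20 genes of nuclear speckles and splicing, 1 was higher and 0 lower in Akita vs WT (Srsf4), with a median log2 fold change of −0.07, while the median of all tested genes lay between −0.01 and 0.00 in every comparison. Of all tested genes 3.96% were higher and 3.68% lower in Akita vs WT, so 1 of 20 is near the background. For the interaction 8 of the 20 were higher and 0 lower, with a median of 0.23, against 10.1% of all genes higher and 10.2% lower. The largest were Srsf2 (1.27 ± 0.28, adjusted p = 0.00713) and Srsf1 (1.19 ± 0.25, adjusted p = 0.00517), both SR proteins that promote exon use. Srsf1 was 89.0 ± 7.57 CPM in WT, 59.3 ± 9.71 in WT + NACET, 61.1 ± 9.19 in Akita and 92.7 ± 27.6 in Akita + NACET. It rose with NACET in Akita (0.60 ± 0.17, adjusted p = 0.0377), and its mean was lower in WT + NACET than in WT.

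Transcripts known to retain introns in the nucleus were described next. Of 13 tested, 0 were higher and 2 lower in Akita vs WT (Ogt and Rbm5), with a median of −0.37, and 2 were higher and 0 lower in Akita + NACET vs Akita (Clk1 and Ogt), with a median of 0.33, against 4.51% of all genes higher and 5.14% lower there. For the interaction 10 of 13 were higher and 0 lower, with a median of 0.65, against the same 10.1% and 10.2% of all genes. Clk1, a kinase of SR proteins, was 152 ± 11.3 CPM in WT, 102 ± 31.9 in WT + NACET, 97.9 ± 8.10 in Akita and 158 ± 31.4 in Akita + NACET. Its interaction was 1.27 ± 0.28 (adjusted p = 0.00795). In the fit with the share outside exons, 7 of these 13 and 6 of the 20 speckle and splicing genes had a positive slope that passed, and 0 a negative one. With that share in the model edgeR called 0 genes of either list for the interaction, and 1 of each had an unadjusted p under 0.05. Of all 16183 genes that model called 17 for the interaction. Scaled to all uniquely aligned reads in place of TMM, the median of all genes moved to −0.13 for Akita vs WT, to 0.12 for Akita + NACET vs Akita and to 0.16 for the interaction. The calls among all genes were then 331 higher and 982 lower in Akita vs WT, against 641 and 596 with TMM, and 1253 and 257 in Akita + NACET vs Akita, against 730 and 832. On that scale the 6 lncRNAs differed in Akita vs WT by −0.40 (Sox2ot) to −1.66 (Snhg11).

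Paraspeckle proteins, the partners of Neat1, were called no more often than all genes in Akita vs WT and for the interaction. Of 14, edgeR called 0 in Akita vs WT, against 7.64% of all genes. There 3 had an unadjusted p under 0.05 and the median was 0.14. For the interaction 1 was higher (Sfpq, 0.96 ± 0.22, adjusted p = 0.00750) and 1 lower (Hnrnpk, −0.50 ± 0.13, adjusted p = 0.0145), against 10.1% of all genes higher and 10.2% lower. Nono, which pairs with SFPQ, had an interaction of −0.13 (adjusted p = 0.438). Of 4 proteins known to bind Miat, Srsf1 and Celf3 had a positive interaction (Celf3 0.83 ± 0.24, adjusted p = 0.0232), while Sf1 (−0.04, adjusted p = 0.860) and Qk (0.14, adjusted p = 0.587) did not pass. The same 10.1% of all genes were higher, and this list is short.

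Among other lncRNAs, 3 imprinted transcripts of the Meg3 cluster were lower in Akita, as Snhg11 was. Of 16 tested, 0 were higher and 3 lower in Akita vs WT, namely Meg3 (−1.73 ± 0.30, adjusted p = 0.0141), Mirg (−1.93 ± 0.33, adjusted p = 0.0117) and Rian (−0.89 ± 0.18, adjusted p = 0.0162). Of all genes 3.96% were higher and 3.68% lower there. Meg3 was 243 ± 44.9 CPM in WT, 144 ± 60.2 in WT + NACET, 73.0 ± 7.83 in Akita and 206 ± 45.1 in Akita + NACET. It rose with NACET in Akita (1.5 ± 0.27, adjusted p = 0.0161), and its mean was lower in WT + NACET than in WT. For the interaction 4 of the 16 were higher and 1 lower, against 10.1% and 10.2% of all genes. Of 8 snoRNA host genes other than Snhg11, edgeR called 0 in Akita vs WT and 0 in Akita + NACET vs Akita (1 and 0 at an unadjusted p under 0.05). Of all genes 7.64% and 9.65% were called, so 0 of 8 is near that background. Gas5, the best known of these host genes, had differences of −0.03 (adjusted p = 0.863) and −0.06 (adjusted p = 0.665). For the interaction only Snhg1 of these 8 passed (0.78 ± 0.23, adjusted p = 0.0240), against 20.3% of all genes.

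Sox2, inside the Sox2ot locus, was at 2.68 ± 0.802 CPM in WT and 1.95 ± 0.514 CPM in Akita, and it did not pass in any comparison (Akita vs WT −0.46, adjusted p = 0.251). Of the 5 genes in its list, Sox2 included, only Pax6, a factor of retinal progenitors and amacrine cells, was called in Akita vs WT, being lower (−0.53 ± 0.13, adjusted p = 0.0236). Among the genes that flank the 6 loci, Mn1, far from Miat, was higher in Akita + NACET than in Akita (0.84 ± 0.24, adjusted p = 0.0358), and its interaction was 1.02 ± 0.34 (adjusted p = 0.0384).

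**Figure D4:**
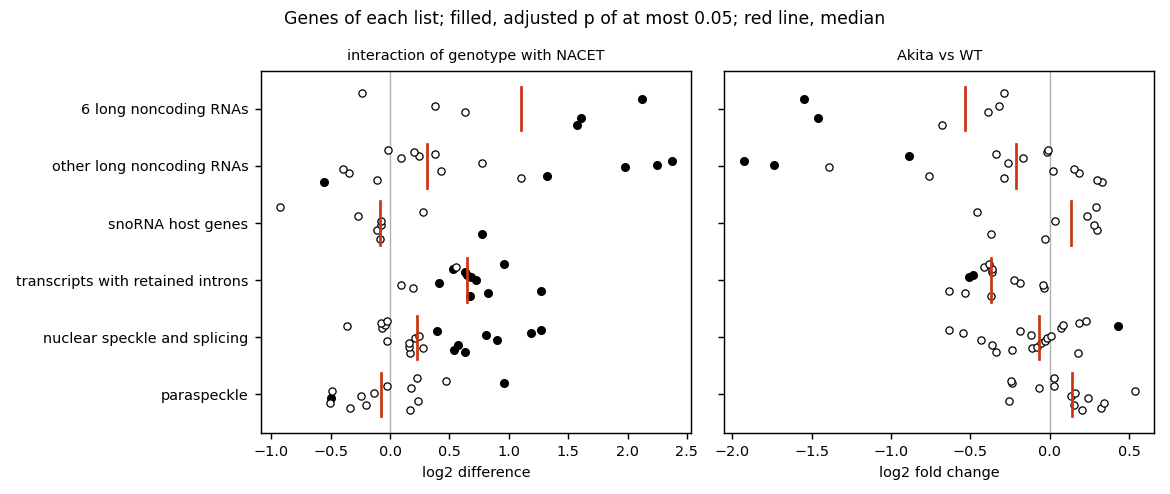
Log2 values of single genes by list, for the interaction of genotype with NACET (left) and Akita vs WT (right), with filled points at an adjusted p of at most 0.05 and the list's median as a red line. For the interaction 10 of 13 transcripts with retained introns and 8 of 20 speckle and splicing genes are filled on the positive side, while the medians of paraspeckle genes (−0.08) and snoRNA host genes (−0.08) lie near 0.

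Cell type markers differed beside these RNAs, and their part in the results was not tested. Of 6 amacrine cell genes tested, 4 were lower in Akita vs WT, with a summed level of 209 to 305 CPM in Akita against 338 to 468 CPM in WT, and 1 was higher in Akita + NACET vs Akita. Of 10 rod genes 3 were higher in Akita vs WT and 7 lower in Akita + NACET vs Akita, and their sum was 139963 to 212928 CPM in Akita, 98480 to 133746 CPM in WT and 90186 to 122711 CPM in Akita + NACET. For the interaction 9 of 10 rod genes and 4 of 8 cone genes were lower. Over all genes, 3.96% were higher and 3.68% lower in Akita vs WT, 4.51% and 5.14% in Akita + NACET vs Akita, and 10.1% and 10.2% for the interaction. Of 8 Müller glia genes 1 (Aqp4) and of 6 endothelial genes 1 (Cldn5) were lower in Akita vs WT, which is near that background. Of 8 ganglion cell genes edgeR called 0 there, with 0 at an unadjusted p under 0.05 and a median of −0.37. The 6 pigment epithelium genes, of a layer that lies against the retina, had higher median sums with NACET. The sum was 89.8 CPM (61.3 to 224) in Akita and 622 CPM (92.4 to 699) in Akita + NACET, and 195 CPM (156 to 559) in WT and 866 CPM (346 to 1500.3) in WT + NACET, with overlap in both pairs. By edgeR 0 of these 6 were called in either comparison, 5 and 3 had an unadjusted p under 0.05, and all 6 differences were positive in both, with medians of 1.83 and 1.59. For Rgr, a light-sensitive protein of that layer, the values were 2.16 ± 0.68 (adjusted p = 0.0584) and 1.69 ± 0.72 (adjusted p = 0.221).

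The genes most alike to each member over the 18 libraries were sought among genes with a mean of at least 10 CPM, by Pearson's r of log2 CPM, as a description without a test, since all values come from the same libraries and groups. Malat1 was most like Rnpc3 (0.97), 1700029J07Rik (0.97) and Snrnp70 (0.96), of which Rnpc3 and Snrnp70 code for spliceosome proteins. Snhg11 was most like Meg3 (0.97), Odz2 (0.95) and Tnik (0.94). For Miat these were Hspa12a, Dgkz and Gprasp1 (0.91, 0.91 and 0.90), for Neat1 Ivd, Fam193b and Stk38 (0.91, 0.87 and 0.87), for Sox2ot Decr1, Nnat and Mccc2 (0.87, 0.87 and 0.86) and for Rmst Ngef, Arhgap1 and Lrrn1 (0.90 each). Among the members themselves, Miat and Snhg11 (r = 0.86) and Malat1 and Neat1 (r = 0.81) were the closest pairs.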

How the data were processed

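Retinal poly(A) RNA was measured in 18 libraries, grouped by the sample labels. The authors used the TruSeq RNA v2 kit and single-end sequencing, aligned to mm9 with TopHat 2.1.0 and counted exon reads per gene without strand with HTSeq-count 0.11.2. The annotation they counted on is not given in the sources used here. The deposited values are raw read counts per gene and library. The unnamed entry (0.00544% of counts) was left out and 185 rRNA genes (0.977% of counts) were removed, as in the study.

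Counts were tested in R 4.3.3 with edgeR 4.0.16 (quasi-likelihood F test, TMM scaling), the default filter (minimum count 10, total 15) and all 4 groups in 1 fit, for 5 comparisons and the interaction. P-values were adjusted by Benjamini-Hochberg over 16183 genes, and called at 0.05 or less. SEs were derived from the F statistic. The procedure was tested on simulated data. Levels are CPM (TMM-scaled) with SD, and RPKM is CPM per kilobase of annotated exon. Single values were compared by exact permutation of the labels, and correlations with 100000 permutations, in scipy 1.17.1. The share outside exons is the count outside exons over all uniquely aligned reads. Loci and sequences are from mm9 with GENCODE vM1. No replicate pair agreed within sampling noise, so each library was counted once.

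The members and gene lists were chosen with earlier results of these data known. Named are all 6 members, their flanking tested genes, called or closely related genes of the lists, and the 3 most alike genes of each. A gene that met this rule is not reported here. Alternatives were DESeq2 1.42.0 (the study's tool) with all or 2 groups, other scalings and filters, rRNA genes kept, a replicate block, the share outside exons as a covariate, and each library left out.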

Additional observations from a re-analysis of the deposited data

Results flagged for a closer look

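The NACET effect differed between the genotypes for 3 of the 6 lncRNAs, each tested as the interaction in the edgeR fit on all 18 libraries. The effect in Akita minus that in WT was 1.58 ± 0.40 (SE, log2) for Malat1 (adjusted p = 0.0133), 1.61 ± 0.52 for Miat (adjusted p = 0.0381) and 2.12 ± 0.40 for Snhg11 (adjusted p = 0.00363). For all 3 the estimate was positive in Akita and negative in WT, but few of these effects passed alone. In WT none did (edgeR adjusted p = 0.140, 0.560 and 0.211), and in Akita only Snhg11 did (adjusted p = 0.0810, 0.0510 and 0.0190). For Miat the WT value was −0.40 ± 0.37, and −0.68 to 0.06 without single libraries, so its sign in WT is not settled. Of all tested genes 20.3% were called for the interaction. None of the 3 passed once the share of reads outside exons was in the model. With it, 17 of all 16183 genes were called for the interaction, against 3289 without it. The part of that share in the difference was not tested further. By Dixon's test of the gap to the nearest library, no single library of a group of 4 to 6 passed as an outlier. This held for the levels of the 6 lncRNAs and the share of reads outside exons (0 of 21 groups tested). Neat1 in Akita came close, with 9.15 CPM in replicate 2 against 5.75 to 6.34 CPM in the others. In groups this small the test can miss a library that stands apart.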

How the results depend on the processing

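Across the alternatives, the interactions of Malat1 and Snhg11 lost their call only with the share of reads outside exons in the model, whereas the calls of Miat and Sox2ot depended on many settings and libraries. The number of the 6 lncRNAs called in Akita vs WT (2) was 3 with DESeq2 on 2 groups, where Malat1 was added, 1 with edgeR on 2 groups, without the filter or with the replicate block, and 0 with the share in the model. Over all genes the main fit called 1237 of 16183 there. On 2 groups DESeq2 called 1156 of 13963 and edgeR 148 of 15302. Without the filter 880 of 27413 were called, with the block 507 of 16183, and with the share 0. In Akita + NACET vs Akita (1) the number of lncRNAs was 2 when scaled to all uniquely aligned reads or with a mean count of at least 50, 3 with DESeq2 on all or 2 groups and edgeR on 2 groups, and 0 with the share. Over all genes the main fit called 1562 of 16183, that scaling 1510 of 16154 and the higher count 1509 of 12204. DESeq2 called 2331 of 16375 on all groups and 1749 of 15829 on 2, edgeR on 2 groups 700 of 15346, and the fit with the share 0. In Akita + NACET vs WT + NACET (2) the number of lncRNAs was 1 with the scaling to all uniquely aligned reads, without the filter or with the block, and 0 with edgeR on 2 groups and with the share. Over all genes the main fit called 2148 of 16183, that scaling 2256 of 16154 and the fit without the filter 1610 of 27413. With the block 1363 of 16183 were called, with edgeR on 2 groups 2267 of 15364, and with the share 194 of 16183. For the interaction (3) the number of lncRNAs was 2 without the filter or with the block, where Miat was lost (adjusted p = 0.0808 and 0.0554), and 0 with the share. Over all genes the main fit called 3289 of 16183, the fit without the filter 2551 of 27413, the block 2656 of 16183 and the share 17 of 16183. Leaving out single libraries gave 0 to 2 calls among the 6 in these 3 comparisons and 2 to 3 for the interaction. Calls over all genes moved in those fits too, as given below.

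With the share in the model several differences changed sign: in Akita vs WT Malat1 (0.19) and Neat1 (0.20), in Akita + NACET vs Akita Malat1 (−0.12), Neat1 (−0.23) and Sox2ot (−0.02), in WT + NACET vs WT Neat1 (0.13), Miat (0.07) and Rmst (0.05), in Akita + NACET vs WT + NACET Neat1 (−0.16), Miat (−0.29) and Rmst (−0.06), and the interaction of Neat1 (−0.36). None of these values passed in either fit. The cause was not tested. Rmst in Akita + NACET vs WT lay at 0, with 7.2e-06 under DESeq2 size factors, 0.0024 with DESeq2 on all groups and 0.0028 with edgeR on 2 groups.

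The 7 accompanying lists held 20, 14, 4, 13, 8, 16 and 5 tested genes. Of these, counted once per list, 7, 10, 1, 16 and 29 were called in Akita vs WT, Akita + NACET vs Akita, WT + NACET vs WT, Akita + NACET vs WT + NACET and the interaction. In the same order, 7.64%, 9.65%, 1.48%, 13.3% and 20.3% of all genes were called. Scaling to all uniquely aligned reads gave 17 (0 higher) against 7 (1 higher), 19 (all higher) against 10 (8 higher) and 3 against 1 in the first 3, and the share as a covariate gave 1 in Akita + NACET vs WT + NACET and 0 in the other comparisons with a change in count (the first 2 and the interaction). Over all genes that scaling called 331 higher and 982 lower, 1253 higher and 257 lower, and 142 higher and 114 lower in those 3. Leaving out single libraries gave 0 to 10, 0 to 15, 0 to 6, 8 to 20 and 18 to 32 calls in the lists. Over all genes the same fits called 0 to 1612, 1 to 1757, 72 to 461, 860 to 2710 and 1699 to 3524. As a share of all counted reads, reads outside exons differed by 4.59 points between Akita + NACET and Akita and no longer passed. Without single libraries the difference between Akita + NACET and Akita was 4.07 to 5.50 points of the unique reads. Its call stood at the smallest exact permutation p that 4 and 5 libraries allow (0.00794), so leaving out any 1 library of either group lost it. Likewise without single libraries, Akita + NACET differed from WT by −0.771 to 0.608 points and from WT + NACET by 2.82 to 4.43. The r of Rmst with the share was 0.470 per uniquely aligned read and passed, and without single libraries it was 0.291 to 0.493, while that of Sox2ot was −0.251 to 0.112. Without single libraries, values near 0 also changed sign: Sox2ot −0.08 to 0.20 in Akita + NACET vs Akita, Miat −0.68 to 0.06 and Rmst −0.23 to 0.12 in WT + NACET vs WT, and in Akita + NACET vs WT Neat1 −0.18 to 0.17, Miat −0.53 to 0.20, Snhg11 −0.24 to 0.12 and Rmst −0.16 to 0.18.

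The replicate numbers did not pair the samples: deviations of same-numbered libraries correlated at −0.33 to 0.34, and 2 of 18 libraries correlated best with their own number. With the replicate block, Akita vs WT had 507 genes called in all against 1237, and Akita + NACET vs Akita 219 against 1562. In that fit Sox2ot was −0.03 in Akita + NACET vs Akita, and Rmst 0.02 in WT + NACET vs WT and 0.05 in Akita + NACET vs WT. Without Akita replicate 4, Akita + NACET vs Akita had 1 gene called in all, without Akita + NACET replicate 5 it had 101, and without WT replicate 1 or 2 Akita vs WT had 0 by edgeR. The few reads of Miat, Rmst, Neat1 and Sox2ot limit what these libraries can show of small changes.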
